A study of Homo sapiens with 12 samples.

Results

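GNA was compared with DMSO in one arm of an RNA sequencing study of A549/DDP cells, a cisplatin-resistant line derived from the human lung adenocarcinoma line A549. The cells carried a short hairpin RNA against NRF2 (shNRF2) and were given either 4 µM gambogenic acid (GNA) or DMSO for 24 h. All groups, the DMSO controls included, were kept in medium with 1 µg/ml cisplatin. The comparison rests on 6 of the 12 libraries in the study, 3 of shNRF2 cells with GNA and 3 of shNRF2 cells with DMSO, and on all genes that passed a count filter in those 6 libraries: 14751 of the 61510 genes in the deposited table. The other 6 libraries come from the same line with a control hairpin (shNC), 3 with GNA and 3 with DMSO, and are used to ask where the response of shNRF2 cells differed and, in the same fit, to estimate the spread of each gene. Neither the number of hairpins or clones nor separate cultures for the 3 libraries in each group can be read from the labels. P-values are therefore set against library-to-library spread, part or all of which may be technical.

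GNA is a caged xanthone from gamboge resin. NRF2, encoded by NFE2L2, is the transcription factor that binds antioxidant response elements and turns on genes for glutathione, NADPH and the removal of reactive compounds. KEAP1 holds it in the cytosol and sends it to the proteasome, and many lung adenocarcinomas carry changes that leave NRF2 active. Protein damage is answered by another factor, HSF1, which forms trimers on heat shock elements and drives the chaperone genes, while stalled translation and amino acid shortage are answered by the integrated stress response through ATF4 and CHOP. HMOX1, which encodes the heme-degrading enzyme HO-1, can be driven by several of these factors. The series title names NRF2, HSF1 and HO-1 in connection with GNA.

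The 6 libraries held 12848607 to 15776177 counts and between 23429 and 24982 genes with at least 1 count. The tested genes took 99.8% of the counts. Levels are given as CPM (depth-scaled counts on the TMM-adjusted library total), and changes as log2 fold changes ± SE of GNA over DMSO from edgeR's quasi-likelihood test. A gene is said to rise or fall where the Benjamini-Hochberg adjusted p over all 14751 genes was under 0.05, and SD values are over 3 libraries. NFE2L2, the gene the hairpin is directed at, stood at 47.8, 49.3 and 53.2 CPM in DMSO and 46.1, 47.4 and 43.6 CPM in GNA. The 2 groups did not overlap, as was so for 46.7% of all tested genes, and the GNA libraries were slightly lower, but the change did not pass the test (-0.13 ± 0.066, edgeR adjusted p = 0.13). In shNC cells it stood at 81.9, 78.0 and 74.5 CPM in shNC DMSO and 89.2, 83.3 and 90.5 CPM in shNC GNA, above every shNRF2 library. Of the 6 epithelial markers KRT8, KRT18 and KRT7 were high, and EPCAM was at 2.32 to 2.95 CPM. KRT19 did not pass the count filter, and CDH1 passed it but neither rose nor fell. The summed markers of other cell types ran from 7.33 to 9.82 CPM in DMSO and 8.31 to 9.44 CPM in GNA for 7 fibroblast genes, from 0.302 to 0.824 and 0.192 to 0.651 CPM for 6 endothelial genes, and from 1.06 to 1.46 and 2.49 to 3.06 CPM for 7 leukocyte genes, with the B cell gene MS4A1 at 0. ITGAM, the 1 leukocyte marker that was tested, rose (1.30 ± 0.33). The part of these markers in the results was not tested. Alveolar type 2 markers summed to 20.4 to 24.3 CPM in DMSO and 35.3 to 38.3 CPM in GNA, of which LAMP3 and ABCA3 were tested and SFTPA2 was at 0.

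GNA changed a large share of the tested genes in shNRF2 cells, and the steepest rises were larger in size than the steepest falls. Of 14751 genes 5296 passed the test (35.9%), 2631 higher (17.8%) and 2665 lower (18.1%). The median rise among the called genes was 0.48 and the median fall -0.41 on the log2 scale, while the median over all tested genes was 0.01. At least 2-fold changes numbered 439 up (2.98%) and 329 down (2.23%), at least 4-fold changes 72 up and 5 down, and at least 8-fold changes 22 up, with no gene down by as much. Scaling by library totals in place of TMM moved the split to 61.5% of the calls being higher, against 49.7% with TMM, since that scaling shifted the median of all genes to 0.07. Summed over called genes, the gain was 80599 CPM and the loss 123337 CPM. The TMM factors were 0.990 to 0.996 in DMSO and 1.03 to 1.04 in GNA, so adjusted CPM sum to less in the GNA libraries. The larger summed loss therefore does not measure a net loss of transcript. HSP90AA1 alone took 22.4% of the gain and the 10 genes with the largest gains took 38.7%. Among those 10 were the chaperone genes HSP90AA1, HSPA1A, HSP90AB1, HSPA8, HSPA5, CANX, DNAJA1 and HSPH1, and MAP1B, a microtubule-associated protein gene. The 10 largest losses took 27% of the loss and were ALDH1A1, KRT8, NCL, PTMA, 5 mitochondrially encoded mRNAs and the mitochondrial rRNA gene MT-RNR2.

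**Figure D1:**
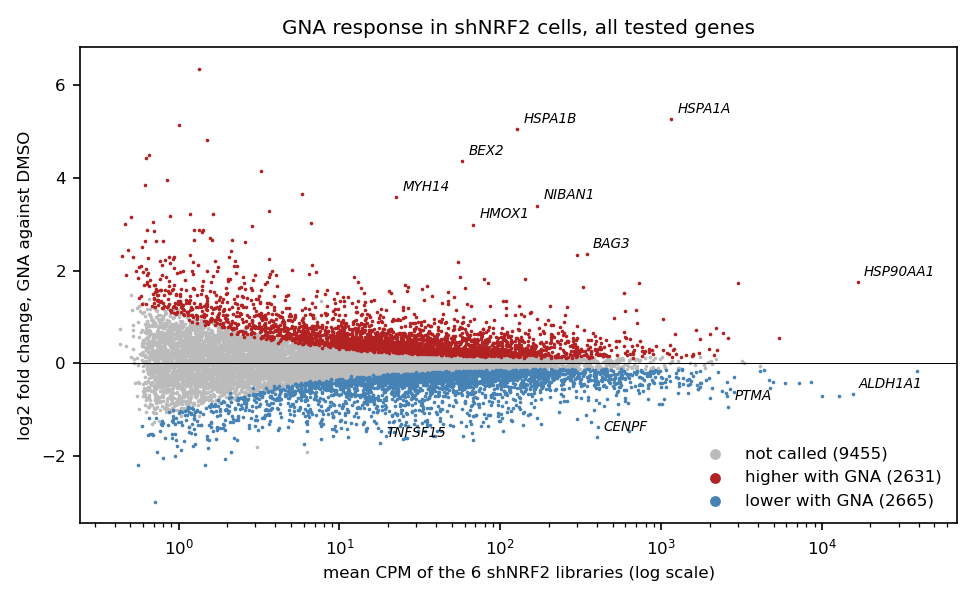
Each point is a tested gene, with its mean CPM over the 6 shNRF2 libraries on a log scale on the x axis and its log2 fold change of GNA over DMSO on the y axis. Red points are the 2631 genes called higher and blue points the 2665 called lower. The upper edge reaches beyond 5 with HSPA1A and HSPA1B, while the lower edge stays mostly above -2. HSPA6 is left out of the plot.

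Heat shock genes led the rises, and the promoters of a few chaperone genes hold the sequence that HSF1 trimers bind. The heat shock element was searched as GAA, TTC and GAA with NN between neighbours, and as its reverse complement TTC, GAA and TTC spaced alike, which covers both strands, from 250 bases before to 50 bases after the start of each gene, in RefSeq promoters of GRCh38.p14. Of the tested genes 10780 had a promoter in that table and 37 of them held the element (0.343%), as did 133 of all 27305 promoters (0.487%). Among genes that rose at least 2-fold it was in 6 of 273 (2.20%), among genes that fell at least 2-fold in 0 of 227, and among the tested chaperone and ubiquitin genes in 5 of 81 (6.17%). Those 6 were HSPA6, PAPPA2, FAM149A, ABHD3, SERPINH1 and GAS5, and only HSPA6 is in the chaperone lists. The chaperone genes CHORDC1 (0.90), HSPA8 (0.76), DNAJA1 (0.73) and DNAJB6 (0.29) held the element but rose less than 2-fold. Of the 37 tested genes with the element 16 rose (43.2%) and 4 fell, against 17.8% and 18.1% of all tested genes. The windows shown here come from 4 chaperone genes with a match and run 5′ to 3′ on the strand of the gene, and capitals mark the element:
HSPA6: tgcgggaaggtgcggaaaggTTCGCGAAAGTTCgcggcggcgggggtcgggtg
HSPA8: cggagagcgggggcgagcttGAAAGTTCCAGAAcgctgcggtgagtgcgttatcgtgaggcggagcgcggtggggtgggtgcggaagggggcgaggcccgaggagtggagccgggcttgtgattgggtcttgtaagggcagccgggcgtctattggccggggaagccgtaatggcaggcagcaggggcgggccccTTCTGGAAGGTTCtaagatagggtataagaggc
CHORDC1: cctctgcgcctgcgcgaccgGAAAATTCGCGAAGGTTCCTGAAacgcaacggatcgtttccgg
DNAJB6: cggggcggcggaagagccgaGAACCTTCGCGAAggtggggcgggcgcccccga
These lie at chr1:161524446-161524498 (plus strand), chr11:123062159-123062386 (minus strand), chr11:90223067-90223129 (minus strand) and chr7:157336853-157336905 (plus strand). HSPA8 held 2 separate matches and CHORDC1 3 overlapping ones. The promoters of HSPA1A, HSPA1B, DNAJB1, HSP90AA1, HSPH1 and BAG3 were in the table without a match to the full element, which says only that these letters are not in that window.

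HSP70 proteins fold and hold damaged client proteins, and their inducible genes were among the steepest risers in shNRF2 cells. HSPA6, a strictly inducible HSP70 gene on chromosome 1 at 161524540 to 161526910, plus strand (GRCh38), had 3 counts over the 3 DMSO libraries and 10131 over the 3 GNA libraries. Its level was 0.128, 0 and 0.0765 CPM in DMSO and 229, 219 and 223 CPM in GNA. The ratio on library totals was 3247, with an exact 95% interval of 1111 to 15746 that covers counting error only. HSPA1A, the main stress-inducible HSP70 gene (chromosome 6 at 31815464 to 31817946, plus strand), stood at 54.4, 58.7 and 61.4 CPM in DMSO and 2059, 2401 and 2306 CPM in GNA. The lowest GNA library was above the highest DMSO library many times over, a 38.8-fold rise (5.28 ± 0.072, edgeR adjusted p = 9.9e-27). HSPA1B lies close by and is nearly identical, so reads may be split between the pair. It stood at 8.08, 7.34 and 6.81 CPM in DMSO and 234, 243 and 267 CPM in GNA (5.06 ± 0.091), and the pair summed to 62.5, 66.0 and 68.2 CPM in DMSO and 2294, 2644 and 2573 CPM in GNA. HSPA6 can likewise share reads with its copy HSPA7. The HSP110 gene HSPH1, whose product is a nucleotide exchange factor of HSP70, stood at 326, 323 and 357 CPM in DMSO and 1128, 1107 and 1106 CPM in GNA and rose 3.32-fold (1.73 ± 0.045, edgeR adjusted p = 1.5e-20). The constitutive HSPA8 rose less (1565, 1629 and 1684 CPM in DMSO and 2835, 2699 and 2738 CPM in GNA, 0.76 ± 0.042), and so did the ER member HSPA5 (0.65 ± 0.051) and the mitochondrial HSPA9 (0.53 ± 0.043). Of 15 genes in the HSP70 and HSP110 list 12 rose and 1, HSPA2, fell (-0.90 ± 0.082), with a median of 0.65 against 0.01 over all genes. Of all tested genes 17.8% rose and 18.1% fell.

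HSP90AA1, the inducible cytosolic HSP90 gene (chromosome 14 at 102080738 to 102139699, minus strand), stood at 7384, 7301 and 8344 CPM in DMSO and 26498, 25602 and 25132 CPM in GNA. GNA libraries were all far above DMSO libraries, a 3.35-fold rise (1.75 ± 0.051, edgeR adjusted p = 1.7e-19). In FPKM, which is per length, it went from 1492 to 5223. Its constitutive partner HSP90AB1 rose by 0.55 ± 0.039, the mitochondrial TRAP1 fell (-0.41 ± 0.058) and the ER HSP90B1 fell slightly (-0.17 ± 0.04). Processed copies such as HSP90AA2P can share reads with HSP90AA1. Among co-chaperones, CHORDC1 stood at 165, 174 and 183 CPM in DMSO and 326, 325 and 324 CPM in GNA with no overlap (0.90 ± 0.049). PPID (a peptidyl-prolyl isomerase, 0.58 ± 0.052), PTGES3 (p23, 0.37 ± 0.053), FKBP4 (0.32 ± 0.051), STIP1, which links HSP70 to HSP90 (0.31 ± 0.045), and the ATPase activator AHSA1 (0.29 ± 0.05) rose by less. FKBP5, a target of steroid receptors, fell (-0.64 ± 0.069). Of 19 genes 12 rose and 3 fell (median 0.29), against 17.8% and 18.1% of all genes.

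J-domain proteins hand clients to HSP70. DNAJB1 stood at 96.9, 96.2 and 103 CPM in DMSO and 498, 498 and 501 CPM in GNA, a 5.06-fold rise (2.34 ± 0.056, edgeR adjusted p = 2.6e-21). DNAJA1 rose from 1241 ± 43.8 to 2055 ± 63.5 CPM (0.73 ± 0.046), DNAJB2 by 0.92 ± 0.08, DNAJB4 by 0.83 ± 0.073 and DNAJB6 by 0.29 ± 0.056. DNAJC9, a histone chaperone co-factor, fell (-0.68 ± 0.056). In all 10 of 19 J-domain genes rose and 2 fell (median 0.24), against 17.8% and 18.1% of all genes. BAG3, which couples HSP70 to small heat shock proteins and selective autophagy, stood at 118, 113 and 105 CPM in DMSO and 591, 560.0 and 579 CPM in GNA. The groups were wide apart, with a 5.15-fold rise (2.37 ± 0.06, edgeR adjusted p = 9.4e-21). The small heat shock protein genes HSPB8 (1.48 to 11.9 CPM, 3.02 ± 0.19) and CRYAB (0.856 to 10.9 CPM, 3.65 ± 0.22) rose from low levels, and HSPB1 rose from 121 ± 5.66 to 284 ± 5.31 CPM (1.23 ± 0.06). BAG2 also rose (0.63 ± 0.091), whereas BAG1, BAG4, BAG5 and BAG6 did not pass the test (-0.28 to 0.05).

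Counted by gene, chaperonins did not share the rise of the other families. In the chaperonin and prefoldin list 4 of 16 genes rose and 5 fell (median -0.02), against 17.8% and 18.1% of all genes. The share of all counts taken by the list still rose, from 0.448 ± 0.0192% in DMSO to 0.502 ± 0.00578% in GNA (SD), with no overlap. The mitochondrial pair HSPD1 (from 965 ± 49.1 to 1488 ± 27.1 CPM, 0.63 ± 0.046) and HSPE1 (6.52 to 13.4 CPM, 1.05 ± 0.16) rose. Of the 8 subunit genes of the cytosolic TRiC ring only TCP1 rose (0.24 ± 0.052), CCT2, CCT3, CCT5, CCT7 and CCT8 fell (-0.22 to -0.14), and CCT4 and CCT6A did not pass the test. Those falls were small: without shNRF2 DMSO replicate 3 or GNA replicate 3, and with library totals, 2 of them remained called in each case. Of the heat shock factor genes, HSF1 stood at 28.2, 22.9 and 19.9 CPM in DMSO and 29.6, 24.3 and 29.1 CPM in GNA, with overlapping groups and no call (0.22 ± 0.11, edgeR adjusted p = 0.12). It passed with library totals (0.28, adjusted p = 0.045), without DMSO replicate 1 (0.37, adjusted p = 0.012) and without GNA replicate 2 (0.30, adjusted p = 0.046). HSF4 rose from a low level (3.17 to 6.51 CPM, 1.03 ± 0.21).

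The 5 chaperone lists together (83 genes) took 3.56, 3.58 and 3.73% of all counts in DMSO and 6.93, 6.76 and 6.76% in GNA. The share thus rose from 3.63 ± 0.0934% to 6.82 ± 0.0976% (SD, n = 3), and without HSP90AA1 it rose from 2.87 ± 0.0392% to 4.16 ± 0.0330%. HSP90AA1 went from 0.760 ± 0.0559% to 2.66 ± 0.0679% of counts. In shNC cells the 5 lists went from 4.01 ± 0.0615% to 4.44 ± 0.0592%, so the DMSO level was lower and the GNA level higher in shNRF2 than in shNC, with no overlap in either.

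**Figure D2:**
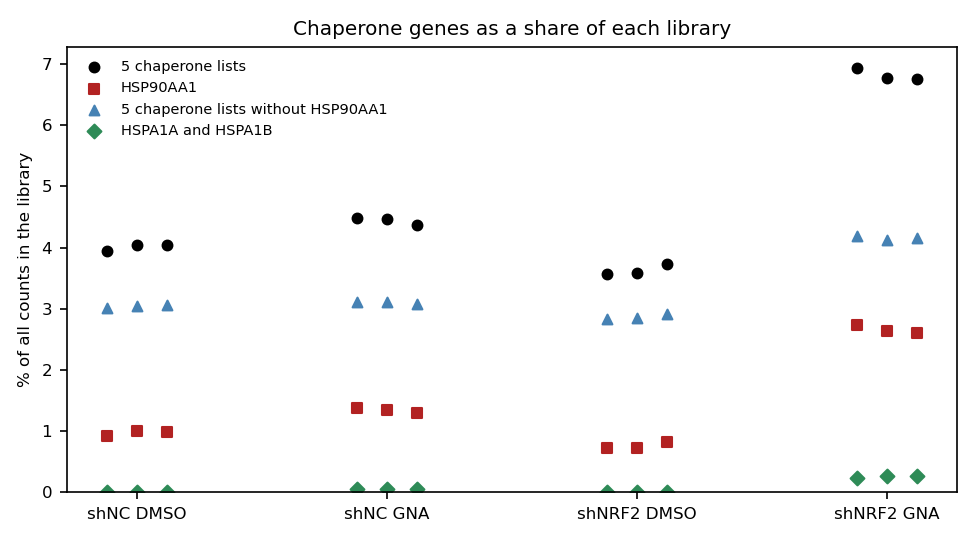
Share of all counts in each library (%, y axis) taken by the 5 chaperone lists, by HSP90AA1, by the lists without HSP90AA1 and by HSPA1A with HSPA1B, in the 3 libraries of each of 4 groups (x axis). The 3 shNRF2 GNA libraries lie at 6.76 to 6.93% for the 5 lists, above all other libraries.

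Ubiquitin genes and the proteasome rose alongside the chaperones. UBB, which encodes a chain of ubiquitin repeats, stood at 329, 343 and 357 CPM in DMSO and 689, 667 and 662 CPM in GNA. Its GNA libraries lay well above its DMSO libraries, a 1.96-fold rise (0.97 ± 0.045, edgeR adjusted p = 4.3e-15). RPS27A, which encodes ubiquitin fused to a ribosomal protein, did not pass the test (-0.04 ± 0.083). ZFAND2A, an arsenite-inducible proteasome partner, rose from 12.1 ± 0.799 to 39.0 ± 1.39 CPM (1.69 ± 0.09), and of the VCP co-factors UFD1 (0.72 ± 0.067) and NPLOC4 (0.65 ± 0.073) rose. Of 18 genes in this list 10 rose (median 0.34), against 17.8% of all genes.

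In the 19S regulator, which recognises and unfolds ubiquitinated proteins, 15 of 20 genes rose (median 0.35). Over all tested genes 17.8% rose and 18.1% fell. The ATPase gene PSMC4 rose from 98.1 ± 4.20 to 162 ± 2.92 CPM, with no overlap (0.73 ± 0.055). PSMD13 (0.63 ± 0.058), PSMC6 (0.58 ± 0.062) and the deubiquitinase PSMD14 (0.55 ± 0.063) were next in size, and the 5 genes without a call (PSMD5, PSMD6, PSMD7, PSMD9 and PSMD10) lay between -0.15 and 0.25. In the 20S core and its assembly factors 8 of 19 rose and 1 fell (median 0.16), PSMB7 by 0.47 ± 0.062. That count was 4 without DMSO replicate 1 and 4 without GNA replicate 1. NFE2L1, the CNC factor that drives proteasome genes when the proteasome is impaired, rose from 489.6 ± 16.4 to 712 ± 5.66 CPM (0.54 ± 0.047).

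Autophagy receptors rose as well. SQSTM1 (p62), which binds ubiquitinated cargo and also sequesters KEAP1, stood at 312, 293 and 305 CPM in DMSO and 845, 882 and 873 CPM in GNA. The groups were far apart, a 2.86-fold rise (1.51 ± 0.047, edgeR adjusted p = 6.6e-19). The ATG8 family genes MAP1LC3B (from 26.5 ± 2.65 to 68.0 ± 8.13 CPM, 1.35 ± 0.085) and GABARAPL1 (from 36.3 ± 1.66 to 88.5 ± 2.94 CPM, 1.29 ± 0.073) rose, and the receptor genes CALCOCO2 (0.54 ± 0.045) and OPTN (0.43 ± 0.047) rose less. Core conjugation genes such as ATG3, ATG5 and ATG7 did not pass the test (0.01 to 0.13). In all 12 of 24 autophagy genes rose (median 0.26), against 17.8% of all genes. Among lysosome genes 11 of 25 rose and 2 fell (median 0.18), against 17.8% and 18.1% of all genes. The proteases CTSD (1.04 ± 0.11) and CTSL (0.88 ± 0.05) were ahead of the folliculin gene FLCN (0.79 ± 0.15), while CTSB (-0.35 ± 0.045) and the transcription factor gene MITF (-0.57 ± 0.067) fell.

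Integrated stress response genes rose in part. DDIT3, which encodes CHOP, stood at 20.4, 18.5 and 20.4 CPM in DMSO and 95.0, 86.3 and 87.6 CPM in GNA, a 4.53-fold rise with no overlap (2.18 ± 0.078, edgeR adjusted p = 1.7e-17). NUPR1 rose from 35.3 ± 2.36 to 124 ± 5.12 CPM (1.81 ± 0.064), the pseudokinase gene TRIB3 from 16.1 ± 0.376 to 48.9 ± 4.28 CPM (1.61 ± 0.099), ATF3 from 50.9 ± 2.47 to 120.5 ± 2.04 CPM (1.24 ± 0.059) and PPP1R15A (GADD34, the subunit that directs dephosphorylation of eIF2α) from 435 ± 15.2 to 963 ± 3.73 CPM (1.15 ± 0.044). ATF4 mRNA, whose control is mainly translational, stood at 362, 371 and 367 CPM in DMSO and 392, 395 and 394 CPM in GNA: higher in every GNA library, but not called (0.10 ± 0.042, edgeR adjusted p = 0.062). It passed with library totals (0.16, adjusted p = 0.0025) and in a fit of the 6 shNRF2 libraries alone (0.10, adjusted p = 0.041). CEBPB (0.00 ± 0.16) and ATF5 (-0.12 ± 0.13) did not pass the test. Of the 15 regulators 8 rose (median 0.37), against 17.8% of all genes.

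Enzymes of serine, one-carbon and amino acid synthesis rose in 13 of 16 cases (median 0.49). The largest called changes were PCK2, the mitochondrial phosphoenolpyruvate carboxykinase (from 18.9 ± 1.26 to 48.5 ± 5.72 CPM, 1.36 ± 0.09), CBS, of transsulfuration (from 7.29 ± 2.62 to 19 ± 7.05 CPM, 1.35 ± 0.25), and the mitochondrial folate enzyme gene ALDH1L2 (from 61.8 ± 2.21 to 156 ± 2.86 CPM, 1.34 ± 0.054). The serine synthesis genes PHGDH (0.46 ± 0.056), PSAT1 (0.58 ± 0.053) and PSPH (0.32 ± 0.075) rose by less, and ASNS, at only 1.91 to 4.16 CPM, rose by 1.12 ± 0.27. Of 13 amino acid transporter genes 8 rose and 2 fell, with rises of SLC3A2, the heavy chain of several exchangers (from 375 ± 24.5 to 823 ± 13.9 CPM, 1.13 ± 0.052), and SLC1A5 (0.62 ± 0.067), while the leucine exchanger gene SLC7A5 did not pass the test (0.09 ± 0.15). Of 20 cytosolic aminoacyl-tRNA synthetase genes 11 rose and 2 fell (median 0.20), led by GARS1 (0.81 ± 0.045), IARS1 (0.58 ± 0.045) and WARS1 (0.53 ± 0.048). Set beside the counts of these lists, 17.8% of all genes rose and 18.1% fell.

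Several stress-induced genes outside these pathways rose more steeply. NIBAN1, known to be induced with the unfolded protein and amino acid responses, stood at 31.1, 29.0 and 27.4 CPM in DMSO and 303, 319 and 308 CPM in GNA. Its groups were about an order of magnitude apart (10.6-fold, 3.41 ± 0.064, edgeR adjusted p = 1.0e-23). BEX2, an X-linked gene of the brain-expressed family (chromosome X at 103309346 to 103311046, minus strand), stood at 4.10, 5.66 and 6.35 CPM in DMSO and 115, 110.2 and 105 CPM in GNA, a 20.7-fold rise (4.37 ± 0.11, edgeR adjusted p = 3.1e-21). BEX4 had 14 counts in the 3 DMSO libraries and 278 in the 3 GNA libraries, a ratio of 19.1 on library totals (exact 95% interval 11.2 to 35.4, counting error only), whereas BEX3 fell (from 409 ± 14.1 to 317 ± 11.4 CPM, -0.37 ± 0.054). Of the mTORC1 restraint genes, SESN2 rose from 28.6 ± 0.929 to 59.8 ± 0.424 CPM (1.07 ± 0.071) and DDIT4 (REDD1) rose from 88.6 ± 3.59 to 126 ± 5.00 CPM (0.51 ± 0.054). EIF4EBP1, which binds the cap-binding factor eIF4E, rose by 0.51 ± 0.063.

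Counted by gene, the ER chaperone and IRE1/ATF6 response list did not follow. Of 23 genes 7 rose and 9 fell (median -0.08), against 17.8% and 18.1% of all genes. The share of all counts taken by the list still rose, from 1.39 ± 0.0295% in DMSO to 1.54 ± 0.0391% in GNA (SD), with no overlap. HSPA5 and the lectin chaperone CANX (0.56 ± 0.041) rose, together with the sensor genes ERN1, which encodes IRE1 (from 28.8 ± 1.95 to 54.6 ± 1.25 CPM, 0.92 ± 0.11), and ATF6 (0.44 ± 0.075). SDF2L1 (from 38.2 ± 2.26 to 18.5 ± 1.01 CPM, -1.05 ± 0.087), CRELD2 (from 41.7 ± 4.56 to 20.8 ± 1.30 CPM, -1.01 ± 0.11), MANF (-0.62 ± 0.052), CALR (-0.45 ± 0.045) and PDIA4 (-0.42 ± 0.047) fell. XBP1, the target of IRE1, did not pass the test (0.21 ± 0.16). It passed without GNA replicate 2 (0.49, edgeR adjusted p = 1.5e-04) and with no filter (0.21, adjusted p = 5.5e-04).

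**Figure D3:**
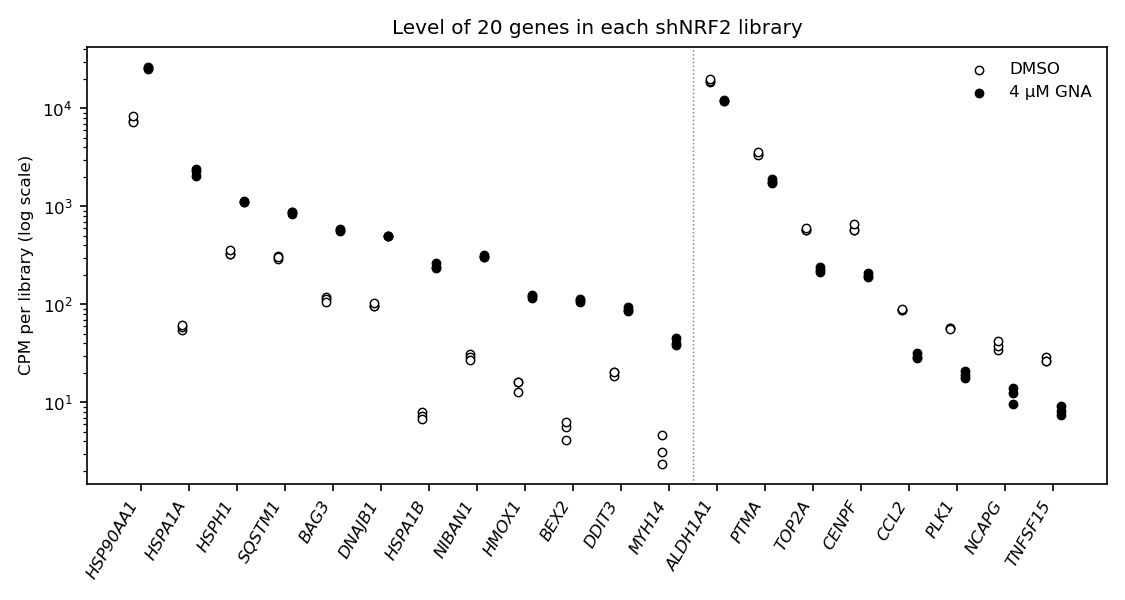
CPM of 20 genes (x axis) in each of the 6 shNRF2 libraries on a log scale (y axis), with open circles for DMSO and filled circles for GNA. The 12 genes left of the dotted line rose and the 8 right of it fell, and in none of the 20 do the 3 GNA libraries overlap the 3 DMSO libraries.

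HMOX1 rose in the NRF2 hairpin cells. The gene (chromosome 22 at 35380361 to 35394214, plus strand) stood at 16.2, 16.3 and 12.9 CPM in DMSO and 116, 121 and 126 CPM in GNA. The groups were far apart, with a 7.98-fold rise (3.00 ± 0.084, edgeR adjusted p = 7.8e-20). The biliverdin reductase B gene BLVRB rose from 44.6 ± 3.08 to 84.4 ± 5.72 CPM (0.92 ± 0.069). The ferritin genes FTL (0.74 ± 0.058) and FTH1 (0.53 ± 0.07), which have many near-identical copies, and ALAS1, the first enzyme of heme synthesis (0.53 ± 0.07), rose as well. The iron oxidase CP, ceruloplasmin, fell from 177 ± 0.460 to 89.5 ± 5.17 CPM (-0.98 ± 0.05), and of 20 heme and iron genes 7 rose and 5 fell (median 0.03), against 17.8% and 18.1% of all genes. The falls numbered 3 with library totals and 3 without GNA replicate 3.

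Detoxification genes went the other way. Of 18 aldo-keto reductase, quinone and aldehyde genes 10 fell and 1 rose (median -0.39, against 18.1% of all genes falling). ALDH1A1, a retinaldehyde dehydrogenase, stood at 18429, 18879.6 and 20028 CPM in DMSO and 12300.3, 11875 and 11849.5 CPM in GNA. Every GNA library was below every DMSO library, and the change was the largest CPM loss of any gene (-0.67 ± 0.041, edgeR adjusted p = 7.7e-13). AKR1B1 fell from 1262 ± 37.0 to 689 ± 8.86 CPM (-0.87 ± 0.046), AKR1C1 by 0.77, AKR1C3 by 0.56 and AKR1C2 by 0.54 on the log2 scale, with the AKR1C genes close enough in sequence to exchange reads. NQO1, the quinone reductase often used as an NRF2 readout, fell from 467 ± 19.2 to 341 ± 6.55 CPM (-0.45 ± 0.048). The fall of the list was not confined to shNRF2: in shNC 11 of the 18 genes fell and 1 rose (median -0.24).

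Among glutathione and thioredoxin genes 6 of 18 rose and 6 fell (median -0.08), against 17.8% and 18.1% of all genes. The regulatory subunit gene of glutamate-cysteine ligase, GCLM, rose (0.47 ± 0.074) and the catalytic one, GCLC, fell (-0.29 ± 0.068). PRDX1 (-0.55 ± 0.061), GPX2 (-0.56 ± 0.062) and TXN (-0.36 ± 0.092) fell, while TXNRD1 rose (0.20 ± 0.043). In NADPH supply, the pentose phosphate genes TKT (-0.80 ± 0.043) and PGD (-0.51 ± 0.041) fell, and IDH1 (0.70 ± 0.057) and ME1 (0.66 ± 0.059) rose. Of the small MAF genes, whose products pair with NRF2 and its relatives, MAFF (from 13.1 ± 1.53 to 39.2 ± 1.42 CPM, 1.57 ± 0.09), MAFK (0.77 ± 0.061) and MAFG (0.65 ± 0.069) rose. KEAP1 (0.08 ± 0.091) and the repressor BACH1 (0.04 ± 0.082) did not pass the test. The antioxidant response element, searched as TGACNNNGC on both strands, was in 15.3% of the tested promoters, in 22.7% of the genes that rose at least 2-fold and in 14.5% of those that fell at least 2-fold. The corresponding shares for the C/EBP-ATF element TGATGNAAN were 1.74%, 3.66% and 1.32%. In these bulk libraries fewer cells with a transcript and less of it in each cell cannot be told apart.

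Proliferation genes were prominent among the steep falls. All 30 spindle, kinetochore and mitotic kinase genes of the list fell (median -1.33, against 18.1% falling and a median of 0.01 over all genes). CENPF, a kinetochore protein gene, stood at 572, 569.7 and 659 CPM in DMSO and 195, 208 and 191 CPM in GNA. No GNA library came near a DMSO library, a 3.03-fold fall (-1.60 ± 0.054, edgeR adjusted p = 6.4e-18). The kinase genes PLK1 (from 57.2 ± 0.820 to 19.3 ± 1.59 CPM, -1.57 ± 0.078), CDK1 (from 99.1 ± 4.99 to 34.8 ± 0.994 CPM, -1.51 ± 0.089), PLK4 (-1.57 ± 0.11) and AURKB (-1.39 ± 0.11), the kinesin gene KIF20A (-1.60 ± 0.092) and the spindle pole gene ASPM (from 153 ± 4.59 to 55.4 ± 2.62 CPM, -1.46 ± 0.057) fell by similar amounts. The smallest fall in that list was that of CENPA (-0.92 ± 0.33).

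Chromosome condensation genes fell in 14 of 15 cases (median -0.93), against 18.1% of all genes. NCAPG, a condensin I subunit, stood at 34.0, 37.2 and 42.4 CPM in DMSO and 12.6, 14.2 and 9.72 CPM in GNA, a 3.12-fold fall (-1.64 ± 0.11). TOP2A, the topoisomerase that decatenates sister chromatids, fell from 585 ± 19.7 to 227 ± 12.3 CPM (-1.36 ± 0.048), whereas its relative TOP2B (-0.31 ± 0.046) and the cohesin genes SMC1A (-0.51 ± 0.047) and STAG2 (-0.26 ± 0.061) fell less. The exception in the list was NCAPH2 (-0.04 ± 0.15, not called).

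Replication genes fell in 28 of 30 cases (median -0.93), against 18.1% of all genes. GINS3 (-0.39) and POLA2 (-0.33) were below 0 but not called. All 6 tested subunits of the MCM helicase fell, from -0.91 ± 0.061 for MCM7 to -1.19 ± 0.083 for MCM2. The loading factor genes CDC6 (-1.01 ± 0.06) and CDT1 (-1.11 ± 0.17), CDC45 (-1.26 ± 0.074) and MCM10 (-1.33 ± 0.087) also fell, as did the sliding clamp gene PCNA (from 114 ± 7.00 to 61.0 ± 4.82 CPM, -0.90 ± 0.067). In deoxynucleotide synthesis, 8 of 9 genes fell, RRM2, the S phase subunit of ribonucleotide reductase, most (from 88.2 ± 3.45 to 34.4 ± 0.229 CPM, -1.36 ± 0.074). The stress-induced subunit gene RRM2B stood beside these (-0.00 ± 0.065, not called).

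Fanconi and homologous repair genes, which act on crosslinks such as those of cisplatin, fell in 16 of 23 cases (median -0.90). The share of all tested genes that fell was 18.1%. FANCI fell from 96.9 ± 5.82 to 44.6 ± 1.71 CPM (-1.12 ± 0.07), FANCD2 by 0.98, BRIP1 by 1.05 and BRCA1 by 0.69 on the log2 scale. Genes of this list without a call included PALB2 (-0.07 ± 0.085) and FANCF (0.01 ± 0.18). In the G1 list 13 of 20 fell (median -0.41), E2F8 (-1.37 ± 0.22), E2F1 (-0.93 ± 0.18), CCNE2 (-1.11 ± 0.19) and CCND1 (from 539 ± 20.3 to 405 ± 12.9 CPM, -0.41 ± 0.051) among them. CDKN1A, which encodes the CDK inhibitor p21, rose (from 174 ± 5.39 to 236 ± 6.35 CPM, 0.44 ± 0.053).

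Among p53 target genes 8 of 20 rose and the rest were not called (median 0.07), against 17.8% of all genes rising. GADD45A (from 92.6 ± 1.39 to 188 ± 15.8 CPM, 1.02 ± 0.057) and GDF15 (from 27.6 ± 1.75 to 44.8 ± 1.74 CPM, 0.70 ± 0.077) led, MDM2 rose little (0.23 ± 0.045) and BAX (-0.05 ± 0.089) and BBC3 (0.04 ± 0.099) did not pass the test. Of 14 BCL2 family genes 3 rose and 1 fell, against 35.9% of all genes called in either direction, and MCL1 (-0.12 ± 0.053) and BCL2L1 (-0.16 ± 0.08) did not pass the test. PMAIP1 (NOXA, 0.20 ± 0.053) rose, and HRK rose from 14 counts in DMSO to 98 in GNA, a ratio of 6.73 on library totals (exact 95% interval 3.83 to 12.8, counting error only). The TRAIL receptor genes TNFRSF10A (0.53 ± 0.057) and TNFRSF10B (0.41 ± 0.057) rose. In the death receptor and TNF family list 2 of 14 genes rose and 2 fell, against 17.8% and 18.1% of all genes. The rises numbered 7 with library totals. TNFSF15, a TNF family ligand gene, stood at 28.9, 26.2 and 26.8 CPM in DMSO and 9.18, 7.52 and 8.19 CPM in GNA. Its GNA libraries were all under its DMSO libraries, a 3.30-fold fall (-1.72 ± 0.14, edgeR adjusted p = 1.5e-10).

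Chemokine and NF-kB feedback genes fell in 10 and rose in 3 of 19 cases (median -0.36), against 18.1% and 17.8% of all genes. CCL2, a monocyte attractant, stood at 87.1, 87.7 and 89.9 CPM in DMSO and 29.3, 28.2 and 31.7 CPM in GNA, a 2.96-fold fall (-1.57 ± 0.082, edgeR adjusted p = 3.8e-14). CXCL5 fell from 802 ± 11.3 to 443 ± 6.46 CPM (-0.86 ± 0.04), the NF-kB inhibitor gene NFKBIA from 167 ± 6.85 to 98.9 ± 2.50 CPM (-0.76 ± 0.069) and TNFAIP3, which encodes the ubiquitin-editing enzyme A20, from 134 ± 6.72 to 93.7 ± 3.98 CPM (-0.52 ± 0.059). CXCL10, an interferon-induced chemokine gene outside that list, also fell (from 13.9 ± 1.48 to 5.03 ± 1.24 CPM, -1.46 ± 0.14). Secreted stress factor genes rose in 6 and fell in 2 of 10 cases, against 17.8% and 18.1% of all genes. LCN2, the siderophore-binding lipocalin (from 78.1 ± 1.60 to 185 ± 4.15 CPM, 1.24 ± 0.053), STC2 (from 65.9 ± 3.54 to 151 ± 0.745 CPM, 1.20 ± 0.067) and SPP1 (0.67 ± 0.05) rose, while STC1 fell (-0.89 ± 0.13).

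Immediate early genes fell in 11 and rose in 4 of 19 cases (median -0.34), against 18.1% and 17.8% of all genes. FOSB stood at 56.7, 56.2 and 51.6 CPM in DMSO and 25.1, 26.4 and 25.6 CPM in GNA, with all GNA libraries lower (-1.09 ± 0.095, edgeR adjusted p = 7.4e-10). FOS (-0.81 ± 0.069), NR4A1 (-0.62 ± 0.067), IER2 (-0.68 ± 0.15) and EGR1 (-0.43 ± 0.069) fell too, while KLF6 (0.41 ± 0.062), IER5 (0.43 ± 0.057) and JUN (0.22 ± 0.053) rose. YAP and TEAD genes and their targets fell in 12 and rose in 3 of 18 cases (median -0.31), beside the same shares of all genes. CCN2 (CTGF), a matricellular protein gene much used as a YAP readout, stood at 31.9, 30.3 and 28.3 CPM in DMSO and 13.7, 14.7 and 14.5 CPM in GNA, with no overlap (-1.08 ± 0.097, edgeR adjusted p = 1.4e-09). THBS1, which encodes thrombospondin 1, stood at 56.0, 54.0 and 50.8 CPM in DMSO and 29.4, 27.2 and 28.4 CPM in GNA (-0.92 ± 0.079), and AMOTL2 fell as well (-0.56 ± 0.061), whereas ANKRD1 (from 58.3 ± 1.87 to 149 ± 4.71 CPM, 1.35 ± 0.056) and the receptor kinase gene AXL (0.71 ± 0.058) rose.

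Actin, myosin and crosslinker genes fell in 15 and rose in 2 of 21 cases (median -0.30), ACTB by 0.48 and ACTG1 by 0.43 on the log2 scale, with FLNA higher (0.21 ± 0.056) and MYH9 not called (0.05 ± 0.053). KRT8, the simple epithelial keratin, stood at 12253, 12219.6 and 12520.3 CPM in DMSO and 7545, 7412 and 7839 CPM in GNA, lower in all GNA libraries (-0.70 ± 0.04), and its partner KRT18 fell (-0.64 ± 0.044), while KRT7 did not pass the test (0.02 ± 0.057). Of 16 keratin and junction genes 5 rose and 5 fell (median 0.07), with 3 falls without DMSO replicate 1. Of 20 tubulin and microtubule genes 6 rose and 8 fell (median -0.12). The tubulin-binding gene STMN1 fell from 514 ± 37.7 to 214 ± 7.00 CPM (-1.26 ± 0.056), and TUBB (-0.40 ± 0.05) and TUBB4B (-0.36 ± 0.052) fell, against rises of MAP1B (from 1565 ± 58.7 to 2438 ± 46.6 CPM, 0.64 ± 0.047), TUBB2A (0.76 ± 0.12) and TUBB2B (1.27 ± 0.24). PTMA, prothymosin alpha, stood at 3405, 3361 and 3555 CPM in DMSO and 1767, 1912 and 1733 CPM in GNA (-0.93 ± 0.05). In the laminin, collagen and integrin list 7 rose and 7 fell of 24 (median -0.03), LOXL2 (0.52 ± 0.08) upward and ITGB6 (-1.10 ± 0.15) and ITGAV (-0.44 ± 0.055) downward. Beside the counts of these lists, 17.8% of all tested genes rose and 18.1% fell.

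All 13 mitochondrially encoded mRNAs fell (median -0.62), against 18.1% of all genes. Together they took 6.21, 6.15 and 5.44% in DMSO and 4.22, 4.23 and 4.20% in GNA of counts. The GNA libraries were all lower and nearly equal to each other. MT-CO3, cytochrome oxidase subunit 3, stood at 16267, 16026 and 15029 CPM in DMSO and 9780.4, 9661 and 9773 CPM in GNA (-0.70 ± 0.061), and MT-ND3 fell most (-0.91 ± 0.054). The call for the rRNA gene MT-RNR2 (-0.17) was lost with library totals (-0.10, edgeR adjusted p = 0.088). In shNC 10 of the 13 mRNAs fell (median -0.33), and there they took 4.71 to 5.98% of counts in DMSO.

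Glycolysis and hypoxia-response genes fell in 13 and rose in 3 of 22 cases (median -0.26). LDHA fell from 1319 ± 60.6 to 771 ± 7.28 CPM (-0.78 ± 0.046), ENO1 by 0.47 and PKM by 0.42 on the log2 scale, while NDRG1, a stress and hypoxia gene, rose (from 24.2 ± 2.47 to 70.5 ± 3.17 CPM, 1.54 ± 0.078). Among cholesterol and fatty acid synthesis genes 8 of 25 fell, such as FASN (-0.60 ± 0.077) and HMGCS1 (-0.56 ± 0.061), and 3 rose (median -0.12). Over all tested genes 18.1% fell and 17.8% rose. Ribosome biogenesis genes fell in 16 and rose in 2 of 22 cases (median -0.22), NCL from 8203 ± 178 to 6146 ± 259 CPM (-0.42 ± 0.042). Noncoding host genes of small nucleolar RNAs, many of whose spliced transcripts are degraded once translated, rose in 8 and fell in 1 of 15 cases (median 0.38), GAS5 from 98.7 ± 1.80 to 213 ± 3.14 CPM (1.11 ± 0.056) and SNHG32 (1.16 ± 0.11) ahead. Long noncoding genes as a class were called higher in 128 and lower in 46 of 864 cases, against 2307 and 2487 of 12244 protein-coding genes.

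Of the drug efflux genes ABCB1, which encodes P-glycoprotein, stood at 16.5, 15.7 and 18.1 CPM in DMSO and 53.3, 57.4 and 50.5 CPM in GNA. The groups did not overlap, a 3.20-fold rise (1.68 ± 0.099, edgeR adjusted p = 3.7e-13). ABCC1 (0.11 ± 0.07), ABCC2 (0.05 ± 0.054) and ABCC3 (0.09 ± 0.058), whose products export glutathione conjugates, did not pass the test, and ABCC4 fell (-0.47 ± 0.06). In this list 5 of 13 genes rose and 1 fell (median 0.18), against 17.8% and 18.1% of all genes. The rises numbered 3 with no filter. The copper importer gene SLC31A1, which is also linked to cisplatin uptake, rose from 24.0 ± 2.98 to 36.4 ± 1.18 CPM (0.60 ± 0.083), and the zinc exporter gene SLC30A1 (0.54 ± 0.074) and MT2A (0.39 ± 0.051) rose.

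Outside the pathway lists, MYH14 and several low-level genes rose steeply. MYH14, a nonmuscle myosin heavy chain gene, stood at 4.68, 2.37 and 3.14 CPM in DMSO and 40.7, 45.2 and 38.8 CPM in GNA. Its DMSO libraries differed among themselves, yet all lay far below the GNA libraries (12.0-fold, 3.58 ± 0.13, edgeR adjusted p = 2.4e-17). IGFN1 had 28 counts in DMSO and 302 in GNA, a ratio of 10.4 (exact 95% interval 7.03 to 15.9), and the protocadherin gene PCDH1 had 27 and 231, a ratio of 8.23 (5.51 to 12.8), both on library totals and for counting error only. LAMP3, a lysosomal membrane gene and one of the alveolar type 2 markers (2.46 to 10.9 CPM, 2.13 ± 0.22), the collagen VI gene COL6A2 (2.00 to 8.21 CPM, 2.02 ± 0.22) and the small GTPase gene GEM (2.91 to 11.5 CPM, 1.97 ± 0.18) followed. Falls outside the pathway lists included the helicase gene PIF1 (from 9.29 ± 1.40 to 2.78 ± 0.753 CPM, -1.74 ± 0.21), the noncoding gene LNCAROD (-1.61 ± 0.099) and MYH15 (-1.47 ± 0.095).

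**Figure D4:**
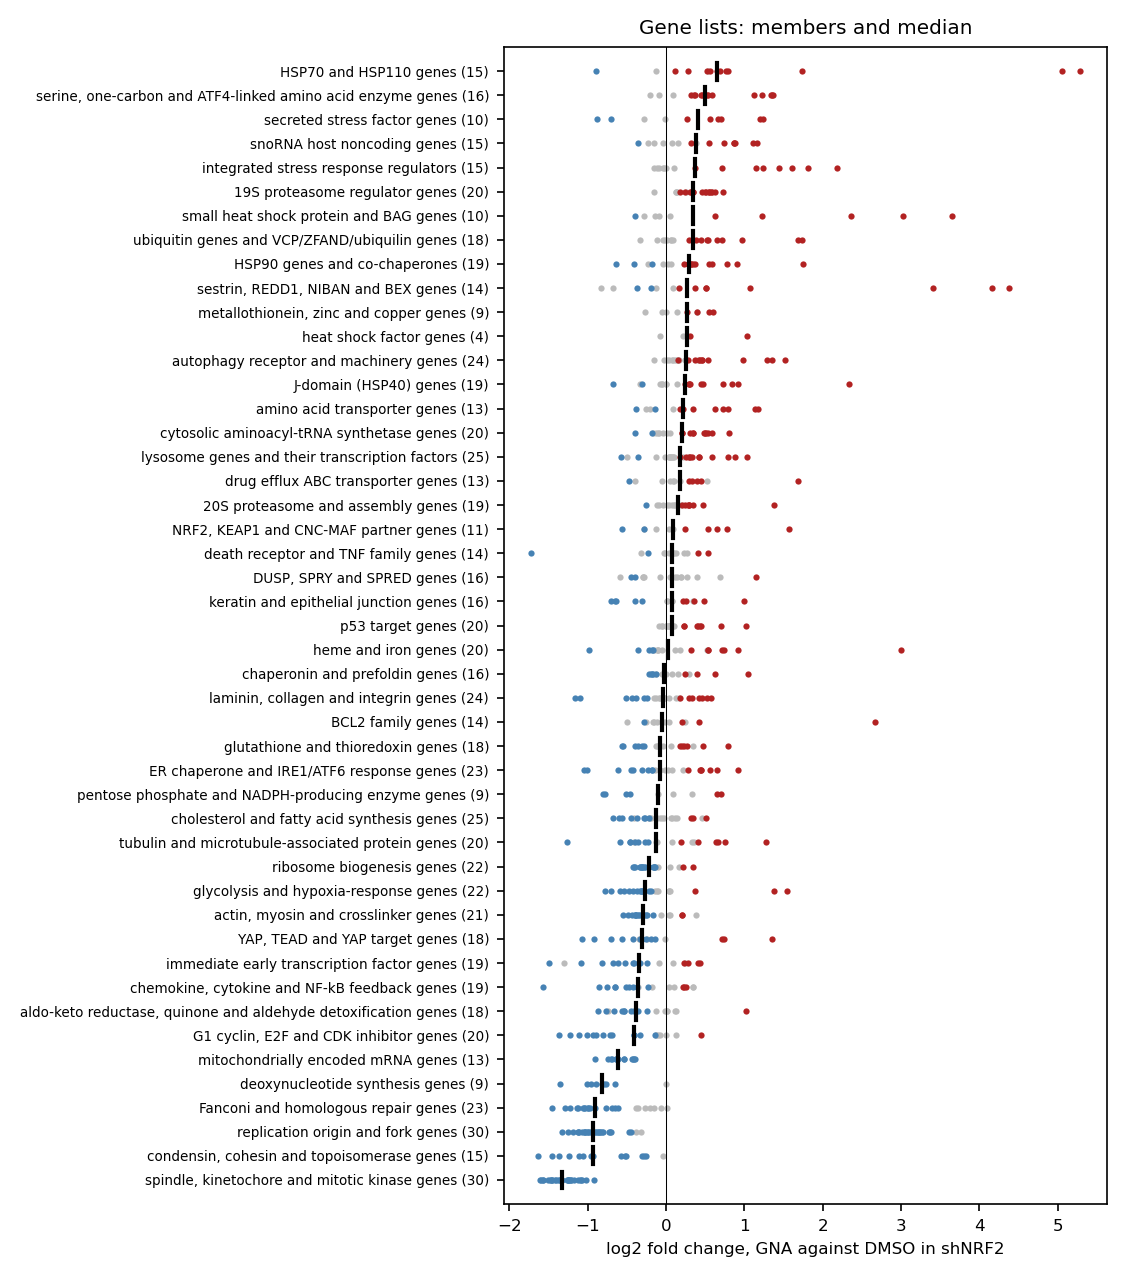
Log2 fold change of GNA over DMSO in shNRF2 (x axis) for every tested member of each gene list (rows, with the number tested in brackets, ordered by median). Red points were called higher, blue points lower and grey points were not called, and black bars are medians. The spindle list lies lowest at -1.33 and the HSP70 and HSP110 list highest at 0.65. HSPA6 is not drawn but counts in its medians.

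Whether the response differed from that of control hairpin cells was tested as an interaction, the change in shNRF2 minus the change in shNC. No library is shared between the 2 changes. Of 14751 genes 1082 passed (7.34%), 571 more positive (3.87%) and 511 more negative (3.46%) in shNRF2. With library totals in place of TMM 38.2% of these calls were more positive, against 52.8%. Without shNRF2 DMSO replicate 2 the more positive genes numbered 365, and without shNC GNA replicate 2 the more negative genes numbered 333. In shNC GNA raised 15.6% and lowered 17% of the same genes. Of the 2631 genes that rose in shNRF2, 1340 also rose in shNC, 40 fell there and 1251 were not called there, and 256 of those 1251 passed the test of the difference. Of the 2665 that fell, 1656 also fell in shNC, 40 rose there and 969 were not called there, with 162 of those 969 passing the test. Across genes the changes in the 2 lines correlated with Pearson's r = 0.64 (14751 genes, which are not independent replicates). Of the 571 genes more positive in shNRF2 443 rose in shNRF2, and of the 511 more negative 340 fell there.

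Many chaperone and 19S proteasome genes had larger rises in shNRF2 than in shNC. HSPA1A differed by 3.11 ± 0.09 (edgeR adjusted p = 1.7e-18), with 117, 112 and 109 CPM in shNC DMSO and 465, 507 and 549.6 CPM in shNC GNA, a change of 2.17 ± 0.063 there. HSPA1B differed by 2.94 ± 0.13, BAG3 by 1.77 ± 0.083, DNAJB1 by 1.66 ± 0.077, HSPB8 by 1.63 ± 0.27, HSPH1 by 1.48 ± 0.063 and HSP90AA1 by 1.38 ± 0.07. HSPA6 went from 8 counts to 2977 in shNC, and its fitted difference of 2.99 ± 0.76 (edgeR adjusted p = 0.017) rests on those 8 and the 3 counts in DMSO. The difference no longer passed when shNC DMSO replicate 1 was left out (2.56, adjusted p = 0.12), nor without shNC DMSO replicate 2 (2.94, adjusted p = 0.063) or shNRF2 DMSO replicate 2 (2.48, adjusted p = 0.080). Several chaperone genes rose in shNRF2 and fell in shNC, among them DNAJA1 (0.73 ± 0.046 and -0.15 ± 0.046, difference 0.87 ± 0.065), HSP90AB1 (0.55 ± 0.039 and -0.13 ± 0.039, 0.68 ± 0.055), HSPA4 (0.12 ± 0.043 and -0.33 ± 0.043), STIP1 (0.31 ± 0.045 and -0.25 ± 0.045), AHSA1 (0.29 ± 0.05 and -0.26 ± 0.049), NUDC (0.23 ± 0.045 and -0.33 ± 0.045) and DNAJB6 (0.29 ± 0.056 and -0.25 ± 0.055). By list, the difference was called more positive for 10 of 15 HSP70 and HSP110 genes and 13 of 19 HSP90 genes, against 3.87% of all genes. It was so for 8 of 19 J-domain genes, 4 of 10 small heat shock protein and BAG genes and 16 of 20 19S genes. Chaperonin and prefoldin genes were more positive in 10 of 16 cases, and 12 of the 16 fell in shNC. The count was 5 of 19 for the 20S core and its assembly factors, and it fell to 1 without shNRF2 DMSO replicate 2, to 2 without shNC GNA replicate 2 or shNRF2 GNA replicate 2, and to 3 with library totals or without shNRF2 DMSO replicate 1, shNC GNA replicate 3 or shNC DMSO replicate 2. In the HSP90 list 2 genes were more negative, the ubiquitin ligase gene STUB1, whose product is CHIP (-0.91 ± 0.15), and FKBP5 (-0.34 ± 0.098, edgeR adjusted p = 0.031), which was no longer called in 7 of the fits that left out a library. Among the small heat shock protein and BAG genes BAG1 was more negative (-0.51 ± 0.084, 0.37 ± 0.059 in shNC).

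Other genes with a larger rise in shNRF2 were MYH14 (2.25 ± 0.17), HMOX1 (1.81 ± 0.073 in shNC, difference 1.19 ± 0.11, edgeR adjusted p = 7.3e-08), ABCB1 (0.59 ± 0.099 in shNC, 1.08 ± 0.14), SQSTM1 (0.93 ± 0.064), IGFN1 (1.88 ± 0.28), PCDH1 (1.87 ± 0.38) and NIBAN1 (0.92 ± 0.087). HMOX1 stood at 36.3, 43.4 and 42.3 CPM in shNC DMSO and 134, 143 and 151 CPM in shNC GNA. Its DMSO level was lower in shNRF2 than in shNC in every library, and its GNA level was lower too, the highest shNRF2 library lying below the lowest shNC library.

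Among the 15 integrated stress response regulators 2 were called more positive in shNRF2, PPP1R15A (0.42 ± 0.062) and the eIF2α kinase gene EIF2AK2 (0.33 ± 0.079), and 3 more negative, CEBPB (-0.79 ± 0.22), NUPR1 (-0.41 ± 0.095) and CHAC1. Without shNC DMSO replicate 3, NUPR1 alone of these 3 was called. DDIT3 changed by 2.18 ± 0.078 in shNRF2 and 2.05 ± 0.084 in shNC, a difference of 0.13 ± 0.12 that did not pass the test (edgeR adjusted p = 0.6). PCK2 rose less in shNRF2 (difference -0.74 ± 0.13), as did PHGDH (-0.71 ± 0.081), PSAT1 (-0.65 ± 0.076) and STC2 (-0.59 ± 0.095). The same held for CHAC1, a glutathione-degrading enzyme gene at low level (2.11 to 5.73 CPM, difference -1.72 ± 0.43, edgeR adjusted p = 0.014), which did not pass once shNC DMSO replicate 3 was left out (-1.29, adjusted p = 0.064). Of the amino acid enzymes 7 of 16 were called more negative, against 3.46% of all genes. Of the 18 detoxification genes 3 were called more negative, and the median difference of that list was -0.03.

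Some genes fell in shNRF2 and rose in shNC. CCN2 changed by -1.08 ± 0.097 in shNRF2 and 0.41 ± 0.094 in shNC, a difference of -1.49 ± 0.14 (edgeR adjusted p = 3.7e-08), with 17.8, 20.3 and 17.8 CPM in shNC DMSO and 21.8, 25.1 and 27.5 CPM in shNC GNA. THBS1 (0.25 ± 0.08 in shNC, difference -1.17 ± 0.11), NR4A1 (0.53 ± 0.072, -1.15 ± 0.099), EGR1 (0.58 ± 0.073, -1.001 ± 0.10) and CCN1 (0.52 ± 0.079, -0.78 ± 0.11) did the same. FOSB was not called in shNC (-0.11 ± 0.096, difference -0.98 ± 0.13), nor was NFKBIA (-0.08 ± 0.067, -0.68 ± 0.096). Of the 18 genes of the YAP list 7 were called more negative and 2, ANKRD1 (0.55 ± 0.077) and NT5E (0.38 ± 0.091), more positive. Of the 19 immediate early genes 5 were more negative and 1, IER5 (0.59 ± 0.08), more positive, against 3.46% and 3.87% of all genes. Among mitotic genes the fall was deeper in shNRF2 for 13 of 30, such as CENPF (-0.64 ± 0.075), CDK1 (-0.55 ± 0.12) and ASPM (-0.62 ± 0.079). That count was 6 without shNC GNA replicate 2, without shNRF2 DMSO replicate 3 or without shNRF2 GNA replicate 1. TOP2A differed by -0.57 ± 0.066. Of the 13 mitochondrially encoded mRNAs 6 were called more negative (median difference -0.29). Library shNC DMSO replicate 1 was the least like its partners (chi-square per degree of freedom 7.98 and 6.25, against 2.26 to 5.30 in all other pairs of a group), which enters these differences. Without it 784 genes were more positive and 710 more negative.

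**Figure D5:**
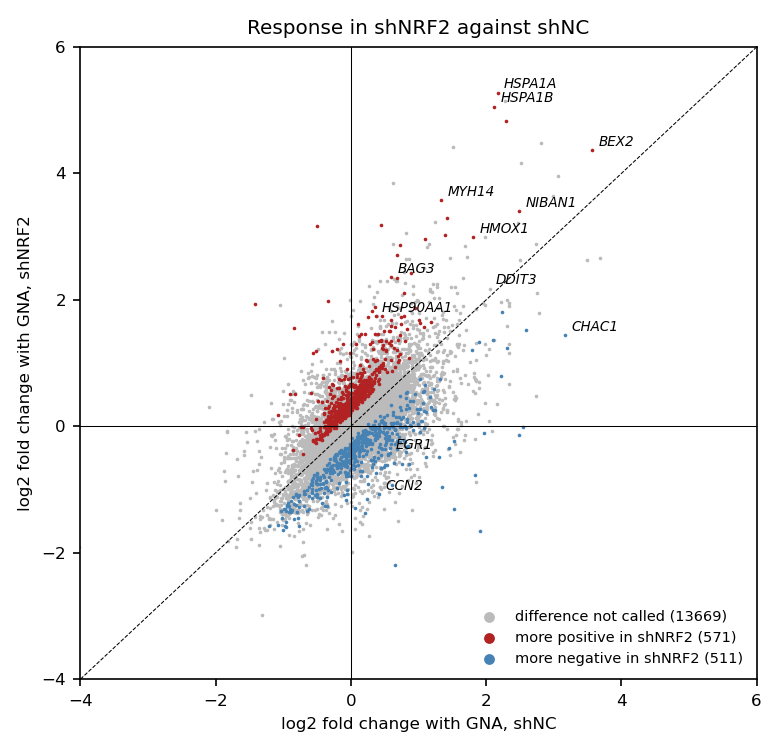
Log2 fold change with GNA in shNC (x axis) and in shNRF2 (y axis) for each tested gene, with equal change on the dashed line. Red points are the 571 genes more positive and blue points the 511 more negative in shNRF2, and 3 genes, HSPA6 among them, lie outside the axes or are not drawn. Chaperone genes such as HSPA1A, BAG3 and HSP90AA1 lie above the line and CCN2 and EGR1 lie below it.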

How the data were processed

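RNA was sequenced from 12 libraries in 4 groups of 3, and 6 of them form the comparison in shNRF2 cells. Raw counts per gene symbol, not normalized, were deposited by the authors, with a second table of FPKM values from the same libraries. GRCh38 and DESeq2 are named in the submitters' processing notes with no role, with the aligner, the counter and its strand setting not given in the sources used here. In 100% of 9263 genes checked the deposited FPKM values were proportional to the counts within a tolerance of 0.001, so FPKM served only to give a level per length. Counts were tested with edgeR 4.0.16 in R 4.3.3, with TMM factors and a quasi-likelihood F test on all 12 libraries, which left 8 residual degrees of freedom, after filterByExpr on the 6 shNRF2 libraries (minimum count 10, minimum total 15). SE values are the size of the log2 change over the square root of F. P-values were adjusted by Benjamini-Hochberg over 14751 genes. With 3 libraries against 3, an exact permutation test cannot give a p under 0.1. The scripts were tested on simulated data. Exact Poisson intervals cover counting error only. Positions are those of the GENCODE annotation of GRCh38, matched by symbol, and promoters are from RefSeq.

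The gene lists, the named members and the comparison were chosen with earlier results of these data known, so lists are described by counts and medians with no test. The genes named are NFE2L2, KEAP1, HSF1 and HMOX1, the 20 largest rises and 20 largest falls among called genes whose higher group averaged 5 CPM or more and whose libraries did not overlap, the 10 largest CPM gains and losses, up to 6 called genes per direction and 4 uncalled ones per list, and the 10 largest differences of response in each direction. Other list members named in the text were chosen after their values were seen. Alternatives were DESeq2 size factors, library totals, DESeq2 1.42.0, a replicate block, dropping the filter, requiring 1 CPM in 3 libraries, the 6 shNRF2 libraries alone and leaving out each library. Some items that these rules would name are not reported here.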

Additional observations from a re-analysis of the deposited data

Results flagged for a closer look

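Of the genes named above, 20 were singled out because their response to GNA differed between shNRF2 and shNC cells by at least 2-fold, tested with edgeR as the change in shNRF2 minus the change in shNC. In 15 of them the difference was positive. The heat shock group comprised HSPA1A (3.11 on the log2 scale), HSPA6 (2.99), HSPA1B (2.94), BAG3 (1.77), DNAJB1 (1.66), HSPB8 (1.63), HSP90AA2P (1.499), HSPH1 (1.48) and HSP90AA1 (1.38). HSP90AA2P is a processed copy of HSP90AA1, and reads of the pair may be exchanged. The HSPA6 value rests on few counts in DMSO. MYH14 (2.25), IGFN1 (1.88), PCDH1 (1.87), ITGAM (1.43), HMOX1 (1.19) and ABCB1 (1.08) made up the remaining positive differences. That of ITGAM, a gene at low level that is also a leukocyte marker, was no longer called without shNRF2 DMSO replicate 2 (1.20, edgeR adjusted p = 0.11), and it was also lost without 5 other single libraries, shNC DMSO replicate 3, shNC GNA replicates 1 and 2 and shNRF2 GNA replicates 2 and 3 (1.29 to 1.45), and without the count filter (1.42).

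In the other 5 genes the difference was negative. They were CHAC1 (-1.72), CCN2 (-1.49), THBS1 (-1.17), NR4A1 (-1.15) and EGR1 (-1.001). CHAC1 rose in both lines with a smaller rise in shNRF2, while CCN2, THBS1, NR4A1 and EGR1 fell in shNRF2 and rose in shNC.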

How the results depend on the processing

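In shNRF2, 2631 genes were called higher and 2665 lower. These counts were 2532 and 2754 with DESeq2 size factors in edgeR, 3358 and 2101 with library totals, 2411 and 2443 with no filter, 2618 and 2643 with the 1 CPM filter, 2352 and 2618 with DESeq2, and 2801 and 2799 from the 6 shNRF2 libraries alone. Leaving out 1 library gave 2236 to 2277 higher and 2318 to 2442 lower. For the difference of the response, leaving out 1 library gave 365 to 784 more positive and 333 to 710 more negative genes, against 571 and 511. The low ends were without shNRF2 DMSO replicate 2 and without shNC GNA replicate 2, where the cause was not tested. The count was 424 more positive and 686 more negative with library totals, and 610 and 577 with DESeq2.

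No clear pairing of the libraries by replicate number was seen, though so few pairs cannot exclude one. In shNRF2 1 of 3 same-number pairs correlated above 0.1 (-0.11 to 0.11), and 3 of 6 libraries correlated best with their own number. With the replicate block 2557 genes were called higher and 2607 lower, and 491 more positive and 454 more negative for the difference.

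Of 540 genes picked by the naming rule, which takes only some members of each list, 376 were called in shNRF2. Of these 51 lost the call under some of 13 alternatives, and 48 uncalled genes gained one. For the difference 170 were called and 59 of them lost the call under some of 18 alternatives, and 54 uncalled genes gained one. None of these genes reversed a called direction. Genes at a few CPM, such as CHAC1, ITGAM and HSPA6 in DMSO, are limited by depth.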
